A study of Mus musculus with 18 samples.

Results

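Small RNAs of mouse inner cell mass (ICM) were compared between the first 12 hours of outgrowth and days 2 and 3, using 8 of the 18 libraries of a series on the derivation of embryonic stem cells (ESCs). The early side held 2 libraries of freshly isolated ICM (day 0) and 2 of ICM collected 12 hours after seeding (day 0.5). The middle side held 2 libraries of ICM outgrowths at day 2 and 2 at day 3. These libraries were chosen by their labels and because all are shallow, so that depth did not follow stage. All 1390 listed mature miRNAs entered, and any value below 27.2 normalized counts was raised to 27.2, called the floor below, which is 5 reads in the shallowest library.

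All 4 groups came from E3.5 blastocysts of superovulated NMRI mice. The zona was removed with acidic Tyrode's solution, and the ICM was freed by immunosurgery, in which antiserum and guinea pig complement lyse the outer trophectoderm. The outgrowths at 12 hours, day 2 and day 3 grew on gelatin, without feeder cells, in R2i medium with leukemia inhibitory factor. R2i contains PD0325901, an inhibitor of the kinase MEK, and SB431542, an inhibitor of the receptor kinases for activin and TGF-beta. The fresh ICM had not been cultured, so stage and time in R2i cannot be told apart, and the labels give neither embryo numbers nor whether replicates came from separate collections. An ICM of E3.5 can still hold both epiblast and primitive endoderm, and the labels name no sort. In such bulk samples, fewer cells of a type and less RNA per cell cannot be told apart.

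A miRNA is cut from one arm (5p or 3p) of a hairpin, and bases 2 to 8 of the mature strand, the seed, pair with target messenger RNAs. miRNAs with the same seed can therefore act on overlapping targets even when they come from different loci. In mouse pluripotent cells the miR-290 to miR-295 and miR-17-92 clusters are known to support proliferation, miR-302 marks the epiblast after implantation, and let-7 is held back by Lin28 until differentiation. The Dlk1-Dio3 region of chromosome 12 is imprinted, and its large miRNA clusters are expressed from the maternal chromosome.

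The sequences below are those on which the results turn, from RefSeq on GRCm38.p6, with the seed in capitals. The first set shows that the most abundant miRNA of these libraries shares its seed with one of the steepest risers.
miR-92a-3p: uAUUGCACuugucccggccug
miR-363-3p: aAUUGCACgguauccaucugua
miR-25-3p: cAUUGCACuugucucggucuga
miR-92b-3p: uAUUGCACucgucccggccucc

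The second set shows that members of miR-302 and of the miR-290 cluster carry 1 seed while their levels moved apart.
miR-302d-3p: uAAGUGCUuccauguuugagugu
miR-302b-3p: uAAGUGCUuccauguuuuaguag
miR-295-3p: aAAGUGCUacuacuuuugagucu
miR-294-3p: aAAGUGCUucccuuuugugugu

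The third set holds the Dlk1-Dio3 members with the largest rise and the highest level, together with both arms of the hairpin whose 5p arm was listed at 0 in the middle libraries.
miR-758-3p: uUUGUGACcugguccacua
miR-541-5p: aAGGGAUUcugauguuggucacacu
miR-434-5p: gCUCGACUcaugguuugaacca
miR-341-5p: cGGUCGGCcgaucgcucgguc
miR-341-3p: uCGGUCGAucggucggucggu

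The fourth set holds falling entries: a pair with a common seed, another entry of the same name, and 3 abundant ones rich in G and C.
miR-3473e: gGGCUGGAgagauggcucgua
miR-3473b: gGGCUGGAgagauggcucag
miR-3473d: cCACUGAGccacuuuccagcccuu
miR-5130: cUGGAGCGcgcgggcgaggcaggc
miR-2137: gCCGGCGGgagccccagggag
miR-5126: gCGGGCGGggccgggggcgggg

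miR-758-3p lies at chr12:109712858-109712876 and miR-541-5p at chr12:109742422-109742446, both on the plus strand. GENCODE vM21 places miR-541-5p in an intron of Mirg, a long noncoding RNA gene, and no host gene around miR-758-3p on that strand. miR-363-3p lies at chrX:52741697-52741718 on the minus strand, and miR-302d-3p at chr3:127545665-127545687 on the plus strand. miR-3473e lies in an intron of Rbks at chr5:31667296-31667316 (minus strand), miR-5130 in an exon of Kctd12 at chr14:102982608-102982631 (minus strand), and miR-2137 in an intron of Zfp185 at chrX:72992113-72992133 (plus strand).

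The early libraries held an estimated 111000 to 369000 reads and the middle libraries 201000 to 370000, and 1 read was worth 1.73 to 5.44 normalized counts. At 5 reads the counting error alone is 44.7% of a value. Replicates of a day correlated at a Pearson r of 0.950 to 0.983 across miRNAs, and no pair agreed within sampling noise, so each library counted as 1 sample. With nothing in the labels on separate cultures, the p-values measure the spread between these libraries, which may be technical. The pluripotent label was checked by the miR-290 to miR-295 cluster, which held 10.4% to 17.8% of all normalized counts in early libraries and 6.45% to 10.6% in middle ones.

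Middle and early libraries differed in how many miRNAs they held. Of all 1390, 27.1% and 34.5% (day 0) and 30.4% and 31.4% (day 0.5) were above the floor in the early libraries, whereas 24.3% and 24.7% (day 2) and 24.5% and 24.5% (day 3) were in the middle ones. Every middle library was below every early one, and the middle libraries lay close together. The means were 30.9 ± 3.05% and 24.5 ± 0.150% (SD, n = 4 each), and their difference, -88.5 miRNAs, had an exact two-sided permutation p of 0.0286, the smallest that 4 against 4 libraries can give. The 10 most abundant miRNAs of each library took 47.9%, 44.7%, 48.2% and 48.9% of its counts early and 56.8%, 59.1%, 60.4% and 55.7% later. Counts were thus held by fewer miRNAs in the middle libraries, with means of 47.4 ± 1.84% and 58.0 ± 2.11% (SD, n = 4 each, exact permutation p = 0.0286).

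**Figure D1:**
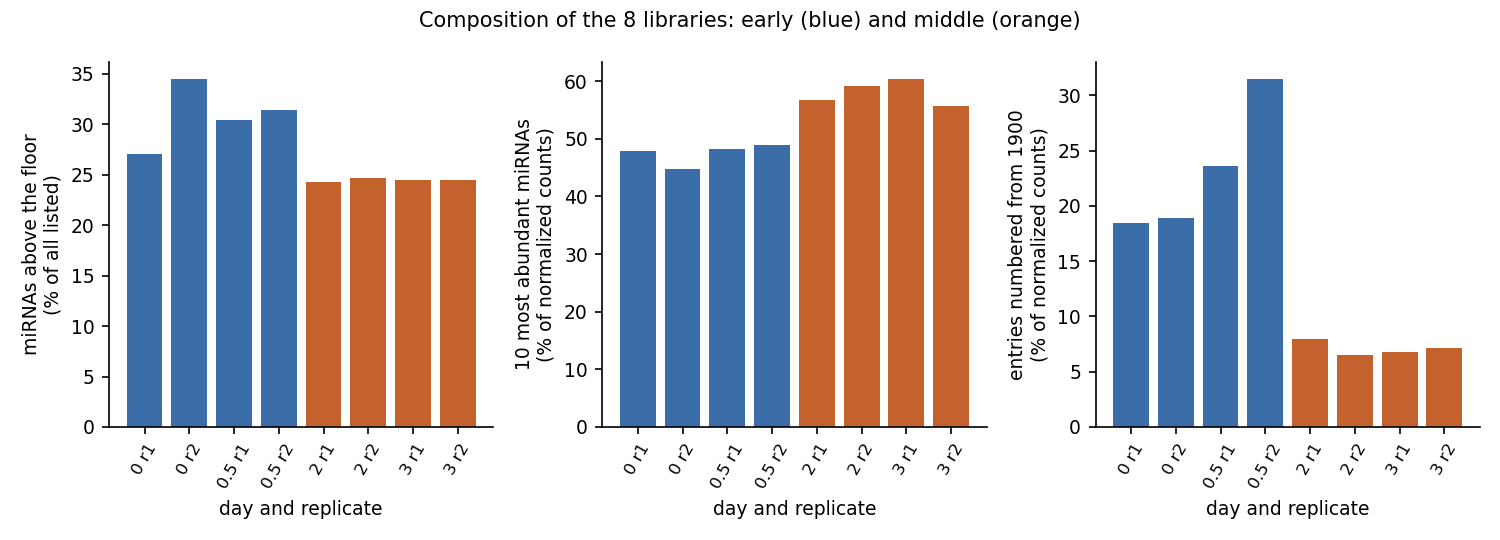
Percent of all listed miRNAs above the floor (left), percent of normalized counts in the 10 most abundant miRNAs (centre) and percent in entries numbered from 1900 (right), 1 bar per library, with early libraries in blue and middle libraries in orange. The 4 middle libraries sit between 24.3% and 24.7%, below all early libraries, and their top 10 share is 55.7% to 60.4%.

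Of the 1390 miRNAs, 714 were at or below the floor in all 8 libraries, and 21.7% of all were above it in 1 to 3 libraries and were not tested. Of the remaining miRNAs, those tested, limma called 59.2% at a Benjamini-Hochberg adjusted p below 0.05, with 26.7% (100 miRNAs) higher in middle libraries and 32.5% lower. Each of the 4 middle libraries lay above all 4 early ones for 81 miRNAs (21.6%) and below them for 99 (26.4%). Changes of at least 1 on the log2 scale were called for 83 rises and 95 falls, and of at least 2 for 44 and 42. Among miRNAs above the floor in all 8 libraries the numbers were equal, with 63 higher and 63 lower. The median log2 change of all tested miRNAs was -0.28. It became -0.50 with libraries rescaled to the same total, where 79 were higher and falls made up 65.8% of the calls, in place of 55%, so the balance of rises and falls depends on the scaling. Values raised to the floor are identical, so for miRNAs with several such values the spread is partly set rather than measured. Of the tested miRNAs, 12 were above the floor in all middle libraries and in no early one, and 21 the reverse. Such miRNAs passed the filter only through the side where they were high, and their calls are descriptions.

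**Figure D2:**
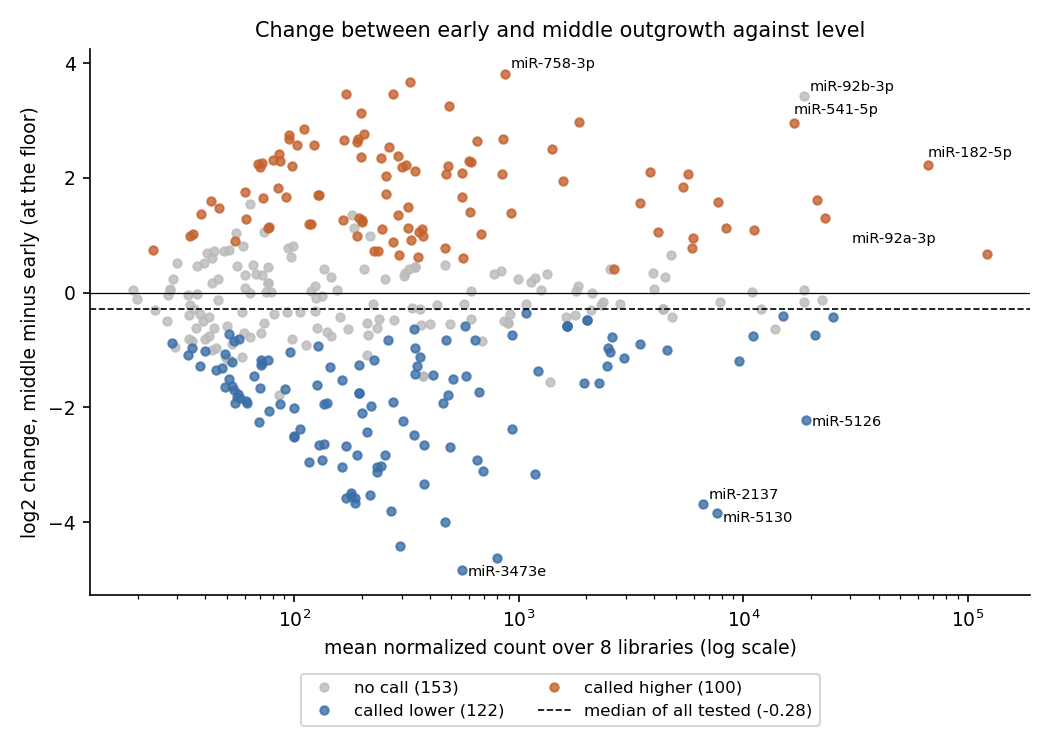
Log2 change, middle minus early, at the floor (vertical axis) against the mean normalized count over the 8 libraries (horizontal, log scale), 1 point per tested miRNA, with calls in colour. The 100 called rises and the called falls span the range of levels, and miR-92a-3p, the most abundant, changed by 0.67.

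The Dlk1-Dio3 miRNAs rose as a group. Of 99 listed members 44 were tested, and 32 were higher and 3 lower, beside 26.7% and 32.5% of all tested miRNAs. The median log2 change was 1.99 beside -0.28 for all tested miRNAs. For 31 members all middle libraries were above all early ones, beside 21.6% of all tested miRNAs. Their share of counts was 1.99%, 2.11%, 2.75% and 2.53% in the early libraries and 7.67%, 8.33%, 9.74% and 10.8% in the middle ones. Under the other scalings run, 29 to 35 were higher and the median stayed between 1.69 and 2.12.

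miR-541-5p was the most abundant member, at 3796 and 3746 normalized counts on day 0, 4371 and 2904 on day 0.5, 20212 and 29179 on day 2, and 45413 and 24756 on day 3. All 4 middle libraries exceeded all early ones. The means were 3704 ± 604 and 29890 ± 10977 (SD, n = 4 each), a log2 change of 2.96 (SE 0.25, limma adjusted p = 1.03e-04).

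miR-758-3p showed the largest rise of any miRNA that met the naming rule. It stood at 85 to 158 in the early libraries and at 1500, 1474, 1785 and 1722 in the middle ones. The 2 sides did not overlap, and no difference between the days of a side was called. The log2 change was 3.81 (SE 0.27, limma adjusted p = 6.51e-05).

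miR-434-5p was listed at 0 and at 62 on day 0, at 165 in the lower of the day 0.5 libraries, and at 683 to 1106 in the middle libraries. It rose in both steps, by 3.26 between stages (SE 0.30, limma adjusted p = 1.40e-04) and by 2.21 from day 0 to day 0.5 (adjusted p = 0.0346). Its partner on the other arm, miR-434-3p, went from 1462 ± 330 to 6232 ± 1048 (SD, n = 4 each), a log2 change of 2.11 (SE 0.16, limma adjusted p = 6.95e-05). miR-409-3p likewise rose early, from 1718 and 1693 on day 0 to 2940 and 3339 on day 0.5 (0.88, limma adjusted p = 0.0346), and reached 7744 to 8971 in the middle libraries (1.84, SE 0.12, adjusted p = 5.79e-05). The early calls of miR-434-5p and miR-409-3p were both lost without the second day 0.5 library. The early change of miR-434-5p, 2.21, also depends on the floor, to which its day 0 value of 0 was raised.

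Also among the 15 largest rises that met the rule were miR-679-5p (3.47), miR-668-3p (3.13), miR-411-5p (2.98), miR-134-5p (2.68), miR-543-3p (2.68) and miR-300-3p (2.65), with limma adjusted p between 5.79e-05 and 0.00119. miR-668-3p lies on chromosome 12 as well but was not in the list, whose names were fixed without it. miR-134-5p, known for limiting dendritic spine size in neurons, went from 245 ± 99.5 to 1460 ± 211 (SD, n = 4 each). Its sides were far apart, as were those of miR-411-5p, at 158 to 732 early and 2064 to 5066 later.

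The 3 members that fell were all low in abundance and all 5p arms, namely miR-341-5p, miR-376a-5p and miR-665-5p. miR-341-5p had 114, 267, 175 and 368 normalized counts early and was listed at 0 in each middle library. Its change of -2.95 (SE 0.37, limma adjusted p = 4.99e-04) is therefore a lower bound on the size of the fall. It entered the test through the early libraries alone, so its call is a description. The falls of miR-376a-5p (-1.02) and miR-665-5p (-0.85) were near the threshold (limma adjusted p = 0.0425 and 0.0447). The members rose along most of the region: in genomic order from miR-673-5p to miR-410-3p, an interval of 171.76 kb, called rises stood at both ends and between. Tested neighbours on both sides of miR-665-5p and of miR-376a-5p rose, whereas miR-341-5p lay between miR-136-3p, which rose, and its own 3p arm, which was not called.

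The miR-302/miR-367 cluster was near or below the floor early and above it later. Of its 9 listed members 4 were tested (median change 2.27). They passed the filter through the middle libraries, so that all 4 were called higher followed largely from the filter and is given as a description. miR-302d-3p was listed at 27, 0, 0 and 18 early and stood at 215, 115, 202 and 303 in the middle libraries (2.86, SE 0.29, limma adjusted p = 1.96e-04). miR-302b-3p was listed at 0 in all early libraries and reached 116, 80, 130 and 227, so its rise of 2.24 at the floor (SE 0.28, limma adjusted p = 4.94e-04) is a lower bound. miR-302a-3p rose by 2.30 (SE 0.27, adjusted p = 3.88e-04), from at most 28 to between 73 and 298. The cluster remained scarce, with 0.0802% of counts on average in the middle libraries, and the early values of the 4 members were at or below the floor apart from one of 28.

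The miR-290 to miR-295 cluster, with the same seed in several 3p arms, showed no rise among 14 tested members, and 5 fell (median -0.40). That share of falls is near the 32.5% of all tested miRNAs, whose median was -0.28. miR-295-3p, one of its main products, had 24640, 22537, 24820 and 21625 normalized counts early and 24556, 22086, 17973 and 21396 later, and its change of -0.13 was not called (SE 0.13, limma adjusted p = 0.403). miR-294-3p fell from 4182, 3774, 2713 and 2568 to 1797, 1335, 1506 and 2134 (-0.96, adjusted p = 0.00232). The largest fall was that of miR-293-5p, from 3284 to 3612 in the early libraries to 882, 910, 1236 and 1685 (-1.57, limma adjusted p = 1.40e-04), and its 3p arm was not called (-0.22, adjusted p = 0.201).

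miR-292-5p was the most abundant of the cluster, at 35125 and 32236 on day 0, 24023 and 24629 on day 0.5, and 18057 to 25054 later. Day 2 overlapped day 0.5, and the change of -0.43 (SE 0.11, limma adjusted p = 0.0148) lost its call without 1 day 0 library (adjusted p = 0.0696) or 1 day 2 library (0.0666). miR-291a-5p changed by -0.29 (SE 0.16, limma adjusted p = 0.155). Over the 5 tested miRNAs with a RefSeq sequence and the seed AAGUGCU, a count without miR-302a-3p, which has no entry there, 2 of miR-302 rose, miR-294-3p fell and miR-295-3p and miR-291a-3p were not called.

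Members of the miR-17-92 cluster and its paralogs were higher or not called. Of 18 tested members 8 rose and 0 fell, beside 26.7% and 32.5% of all tested miRNAs, with a median of 0.70 (0.39 with libraries rescaled to the same total, where 1 fell). The 8 include miR-363-3p, miR-106a-5p and miR-20b-5p, which passed the filter through the middle libraries alone. The count of rises is thus partly set by the filter. miR-92a-3p, made from chromosome 14 and from the X chromosome, had 96642, 90265, 91648 and 96222 normalized counts early and 150861, 153458, 164742 and 130607 later. It rose by 0.67 (SE 0.12, limma adjusted p = 0.00258), with no overlap between the sides. Quantile normalization, which gives the most abundant miRNA of each library the same value, set this change to 0.00.

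Members of the paralog on the X chromosome had low early values. miR-363-3p was listed at 0, 0, 17 and 0 early and stood at 335 ± 166 (SD, n = 4) later (3.47, SE 0.21, limma adjusted p = 5.79e-05). miR-106a-5p, listed at 0 in all early libraries, reached 188 ± 57.2 (SD, n = 4; 2.74 at the floor, adjusted p = 8.52e-05), and miR-20b-5p went from at most 19 to between 84 and 226 (2.26, adjusted p = 4.99e-04). These 3 had no early value above the floor and entered the test through the middle libraries alone, so that each was called higher is a description.

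Abundant products of the cluster in Mcm7 were not called. miR-25-3p stood at 1941, 2267, 1866 and 2338 early and 1906, 1791, 3002 and 1822 later (-0.01, SE 0.19, limma adjusted p = 0.965). miR-93-5p changed by 0.04 (SE 0.13, adjusted p = 0.834), whereas miR-106b-3p of the same transcript rose by 1.27 (adjusted p = 0.00523). From the chromosome 14 cluster, miR-17-5p (0.98), miR-20a-5p (1.19) and miR-19b-3p (1.50) were higher, with limma adjusted p of 0.00549, 0.0146 and 0.00223. Among all tested miRNAs 26.7% were higher. Of the 6 tested miRNAs with a RefSeq sequence and the seed AAAGUGC 4 rose (median 1.08), and of the 4 with AUUGCAC 2 rose (median 2.05). These rises include miR-106a-5p, miR-20b-5p and miR-363-3p, which had no early value above the floor. The median for AUUGCAC rests partly on miR-92b-3p, which was not called.

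miR-92b-3p, the fourth of that seed, was listed at 0 in 1 day 0 library beside 4651 in its replicate, 14159 and 19669 on day 0.5, and 14060 to 36603 later. The early libraries thus ranged from 0 to 19669, and the change of 3.42 was not called (SE 1.54, limma adjusted p = 0.102).

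**Figure D3:**
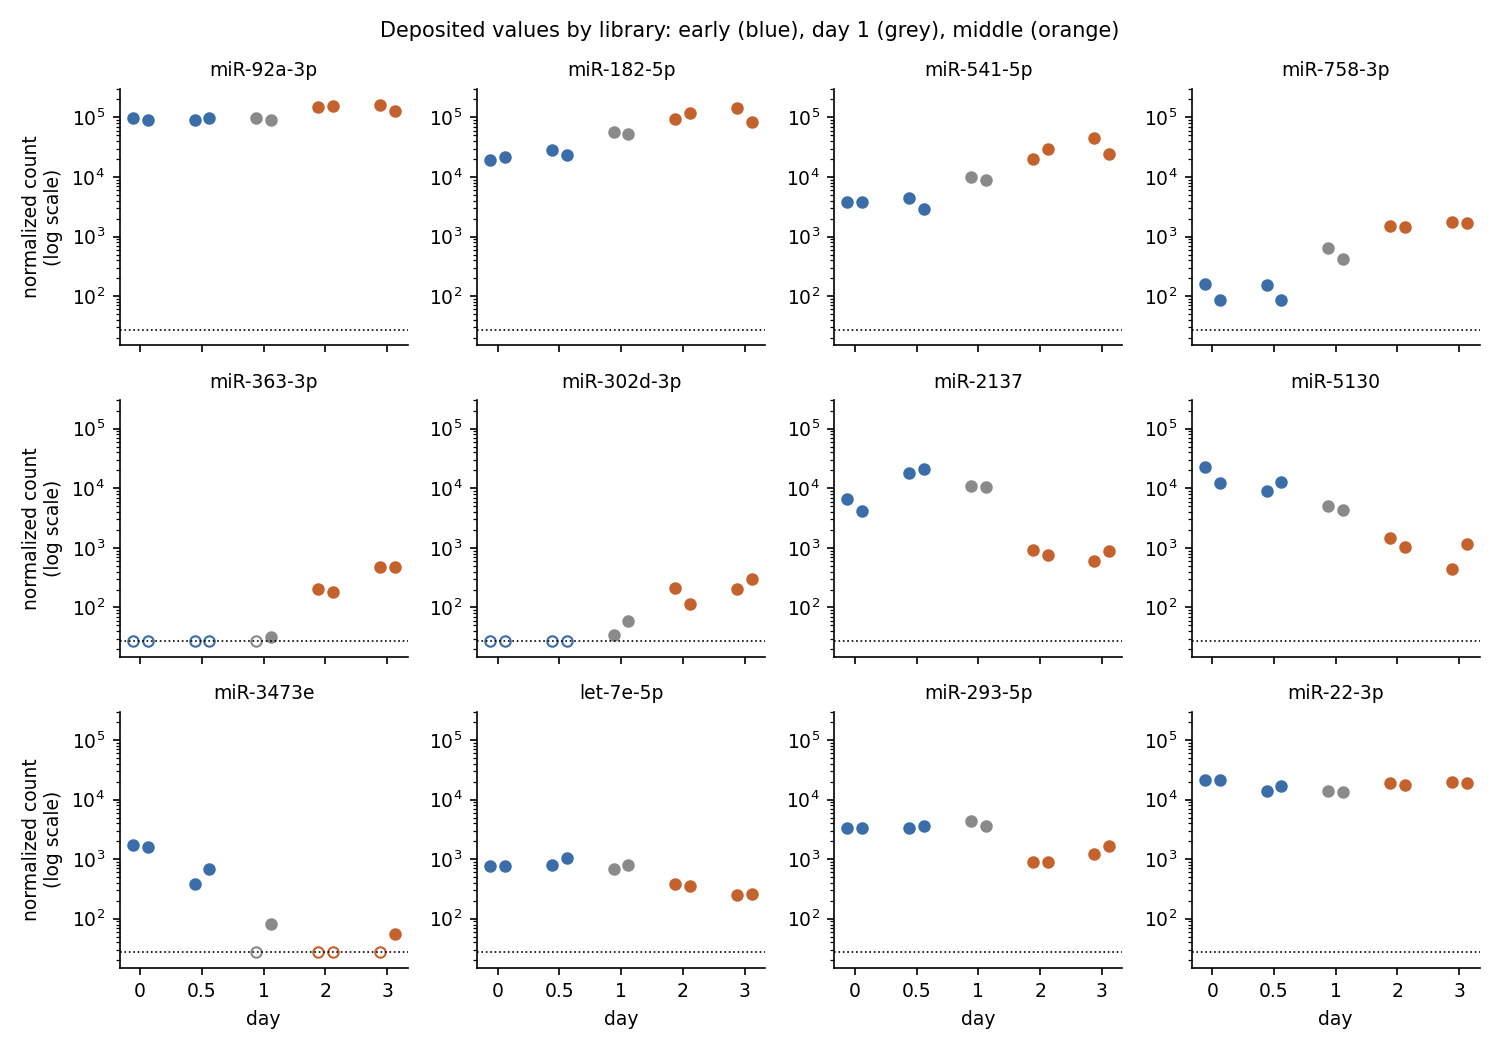
Normalized count per library (vertical axis, log scale) against day for 12 miRNAs, with early libraries in blue, day 1 in grey and middle libraries in orange. The dotted line is the floor of 27.2 and open circles are values at or below it. miR-363-3p and miR-302d-3p leave the floor, miR-3473e goes to it, and the sides of miR-22-3p overlap.

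miR-182-5p, encoded with miR-183 and miR-96 in a cluster best studied in sensory organs and epithelia, was the second most abundant miRNA over the 8 libraries and rose. It had 19224, 21746, 28448 and 23645 normalized counts early and 92428, 117500, 146380 and 82297 later. The gap between the sides was wide, and the log2 change was 2.22 (SE 0.21, limma adjusted p = 1.40e-04). miR-183-5p rose by 2.06 (SE 0.40, adjusted p = 0.00355), with 1 day 3 library at 21513 and the other middle libraries at 5159 to 5608, and miR-96-5p by 1.13 (adjusted p = 0.0248). In this cluster 3 of 5 tested members were higher and 0 lower, beside 26.7% and 32.5% of all tested miRNAs. The cluster as a whole went from 3.44% to 4.90% of counts in early libraries to 12.7% to 17.4% in middle ones.

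All 5 tested miRNAs of the miR-322/miR-503 cluster, on the X chromosome, rose, with a median of 2.06, beside 26.7% higher among all tested miRNAs. Their middle libraries were all above the early ones, as for 21.6% of all tested miRNAs. miR-351-5p, the abundant one, had 13008, 13913, 8660 and 6863 normalized counts early and 33718, 39238, 34801 and 20260 later (1.61, SE 0.20, limma adjusted p = 4.38e-04). miR-322-5p went from 245, 233, 326 and 506 to 1031, 913, 1900 and 1573 (2.06, SE 0.19, adjusted p = 1.40e-04). miR-542-3p, at 0, 0, 10 and 42 early, reached 108 to 262 (2.58, SE 0.26, adjusted p = 1.96e-04). The seed of miR-322-5p, AGCAGCA, is known for slowing the cell cycle. Of the 4 tested miRNAs with a RefSeq sequence and that seed 2 rose, the other being miR-16-5p on chromosome 14 (0.95, SE 0.16, limma adjusted p = 0.00182). miR-15a-5p (0.01) and miR-15b-5p (1.35) were not called (adjusted p = 0.982 and 0.0676).

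Smaller families on the rising side included miR-130/miR-301. It had 4 of 5 tested members higher and 0 lower (median 1.02), beside 26.7% and 32.5% of all tested miRNAs. Within it, miR-130a-3p rose by 1.38, miR-130b-3p by 1.40 and miR-301a-3p by 1.02 (limma adjusted p = 3.60e-04, 0.00211 and 0.00184). miR-335-3p, encoded within Mest, an imprinted gene, was listed at 0 on day 0, stood at 80 and 74 on day 0.5 and reached 307 and 356 on day 3 (2.66, SE 0.23, adjusted p = 1.12e-04). miR-342-3p, from an intron of Evl, rose by 2.76 (SE 0.47, adjusted p = 0.00193).

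In miR-221/miR-222, known to repress the cell cycle inhibitor p27, the members differed and the summed share was 0.0193% to 0.0429% early and 0.0144% to 0.0337% later. miR-222-3p was listed at 0, 0, 19 and 0 early and stood at 238, 227, 178 and 96 later (2.68, SE 0.27, limma adjusted p = 1.96e-04). With no early value above the floor, it entered the test through the middle libraries alone, and its call is a description. The other 3 members were not tested, and of these miR-221-5p was above the floor in 3 early libraries and listed at 0 in every middle one.

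let-7 members were lower or not called. Of 10 tested members of let-7/miR-98, 0 rose, 4 fell with no overlap between the sides and 6 were not called. Among all tested miRNAs 32.5% were lower, and 26.4% had all middle libraries below all early ones. The median was -0.73 beside -0.28. let-7f-5p, the most abundant, had 2686, 3129, 3496 and 4362 normalized counts early and 1754, 2105, 1453 and 1345 later (-1.04, SE 0.14, limma adjusted p = 7.32e-04). let-7e-5p fell by 1.46 on the log2 scale (SE 0.17, adjusted p = 3.55e-04), from 847 ± 138 to 312 ± 67.9 (SD, n = 4 each), and let-7a-5p changed by -0.82 (SE 0.17, adjusted p = 0.00455). let-7c-5p and let-7d-5p, with the same seed, were not called (0.42 and 0.03, adjusted p = 0.246 and 0.942).

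miR-30, a widely expressed family, moved in both directions. Of its 10 tested miRNAs 2 were higher and 5 lower, beside 26.7% and 32.5% of all tested miRNAs. miR-30d-5p rose from 3442, 3364, 4628 and 3990 to 11829, 14304, 8688 and 11693 (1.58, SE 0.15, limma adjusted p = 1.46e-04). miR-30a-5p, which shares its seed, fell from 5797, 5098, 3172 and 2406 to 1807, 1718, 1511 and 2100 (-1.13, SE 0.16, adjusted p = 9.95e-04). miR-30e-5p, again with that seed, stayed at 3053 to 4576 in all 8 libraries (0.07, adjusted p = 0.741).

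**Figure D4:**
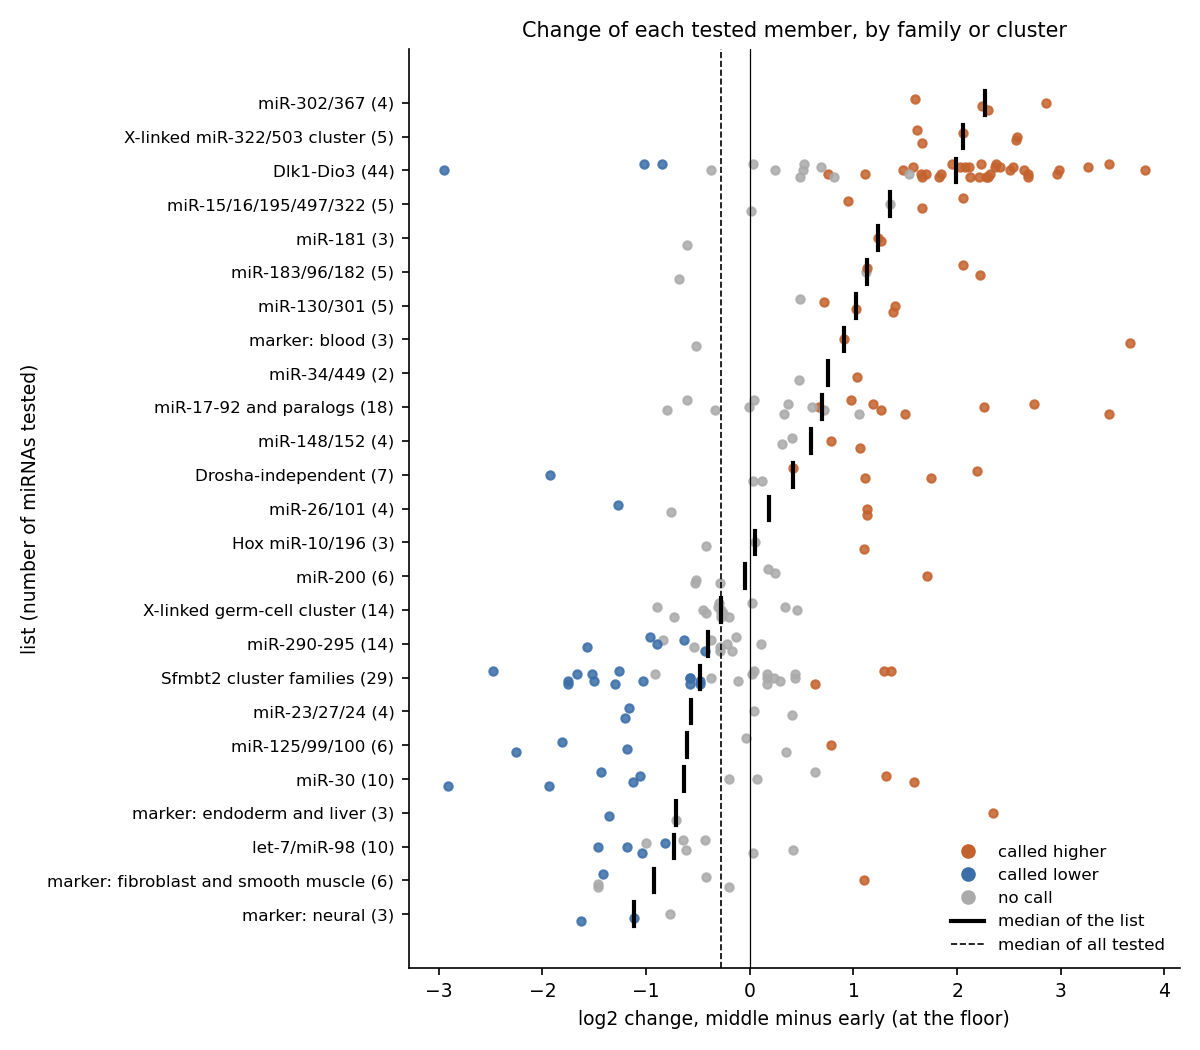
Log2 change, middle minus early, at the floor (horizontal axis) for each tested member of each list, coloured by call, with the median of the list as a black bar and the median of all tested miRNAs as a dashed line. miR-302/miR-367, miR-322/miR-503 and Dlk1-Dio3 have medians of 2.27, 2.06 and 1.99, and let-7/miR-98 has -0.73.

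The Sfmbt2 cluster families were listed by name, after a rodent-specific cluster in an intron of Sfmbt2. Not every member lies there: RefSeq places miR-466i-3p on chromosome 13 and miR-467h on chromosome 9. Of 29 tested members 3 were higher and 14 lower (median -0.48), beside 26.7% and 32.5% of all tested miRNAs. Many members had identical values in all libraries. With identical members counted once it was 3 and 10 of 23 (median -0.37), and under quantile normalization or without day 0 the number lower was 7. miR-466a-3p, one of the most abundant, changed by -0.48 (SE 0.13, limma adjusted p = 0.0145), a call lost without 1 day 2 library (0.0594). Of the 14 tested members of an X-linked cluster best known from testis, 0 were called by limma (median -0.28) and 3 had an unadjusted p below 0.05, but 7 were lower with libraries rescaled to the same total. Its most abundant member, miR-470-5p, stood at 9065 to 12788 early and 6881 to 16231 later.

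Most of the steepest falls were entries with high numbers in the miRNA registry, which are later additions and include sequences with less support as miRNAs. Of 87 tested entries numbered from 1900, 4 were higher and 54 lower, and the median was -1.50. For those with lower numbers it was 96 and 68 of 288 (median 0.11). They held 18.5%, 18.9%, 23.6% and 31.5% of counts in the early libraries and 7.92%, 6.50%, 6.78% and 7.15% in the middle ones. Falling miRNAs had a median GC content of 57.1%, against 45.5% for rising ones and 47.8% for those not called.

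miR-3473e had the largest fall, from 1713 and 1612 on day 0 and 386 and 697 on day 0.5 to 0, 0, 0 and 56 in the middle libraries. Only 1 middle library was above the floor. The log2 change was -4.83 (SE 0.32, limma adjusted p = 5.79e-05). miR-3473b, which shares its seed and most of its sequence, went from 1540 ± 627 to 63.5 ± 30.2 (SD, n = 4 each; -4.63, SE 0.39, adjusted p = 1.03e-04). Reads of these near-identical entries could have been split between them.

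miR-3473d, with another seed, had 528, 595, 490 and 736 normalized counts early and was listed at 0 in all middle libraries. Its change of -4.41 (SE 0.24, limma adjusted p = 5.79e-05) is therefore a lower bound on the size of the fall, as are those of miR-1940 and miR-3471, also listed at 0 there (-3.57 each). Such entries passed the filter through the early libraries alone, so their calls are descriptions. The other falls named by the rule were miR-1946a (-3.99), miR-7016-3p (-3.80), miR-7058-3p (-3.67), miR-8114 (-3.55), miR-7211-5p (-3.52), miR-709 (-3.49), miR-1195 (-3.34) and miR-6240 (-3.16), with limma adjusted p between 5.79e-05 and 0.00159. Of these, miR-7058-3p was at or below the floor in every middle library. It too passed the filter through the early libraries alone, so its call is a description. miR-7058-3p lies in an exon of Lat and miR-8114 in an exon of Glul.

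The abundant falling entries were miR-5130, miR-2137 and miR-5126. miR-5130 stood at 23085, 12267, 8855 and 12884 early and at 1440, 1039, 438 and 1161 later (-3.84, SE 0.36, limma adjusted p = 1.40e-04). miR-2137 rose within the early stage, from 6564 and 4161 on day 0 to 17870 and 21116 on day 0.5 (1.89, adjusted p = 0.0187), and then fell to 794 ± 150 (SD, n = 4; -3.69 between stages, SE 0.21, adjusted p = 5.79e-05). miR-5126 did the same, with 11241 and 11882, then 40560 and 66294, then 3647 to 6930 (2.17 within the early stage, adjusted p = 0.00758, and -2.22 between stages, SE 0.20, adjusted p = 1.40e-04). For both miRNAs the call within the early stage was lost without the second day 0.5 library. All of the mature sequence of miR-5126 is G or C, and 85.7% of that of miR-2137.

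Some very abundant miRNAs gave no simple difference. The sides of miR-22-3p overlapped, at 14161 to 21399 early and 17758 to 19488 later (0.05, SE 0.12, limma adjusted p = 0.761). miR-191-5p stood at 10055 to 12375 early and at 17285, 21745, 76399 and 23833 later, with 1 day 3 library far above the rest. Its rise of 1.31 (SE 0.34, adjusted p = 0.0145) lost its call without either day 0.5 library (0.0631 and 0.0612) or without 1 day 2 library (0.0629). miR-423-5p held at 22911 to 27731 early and at 23726 and 25607 on day 2 but was at 8683 and 9196 on day 3. Its change of -0.74 (SE 0.11, adjusted p = 0.00118) thus joins a day 2 that overlapped the early libraries to a day 3 that lay below them.

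Within each stage few miRNAs differed. Between day 0.5 and day 0, 15 were called (4.00%), 9 higher (2.40%) and 6 lower (1.60%). Without the second day 0.5 library this became 0, with 34 at most among the other settings of the 8 libraries and 73 when all 18 libraries shared 1 estimate of spread. Between day 3 and day 2, 5 were called (1.33%), 2 higher (0.533%) and 3 lower (0.800%), and this became 0 without either day 2 library and 23 without the second day 3 library.

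miR-212-5p, at 98 and 47 on day 0, stood at 672 and 1029 on day 0.5 (3.62, limma adjusted p = 0.00684) and at no more than 11 later, an early peak. miR-28a-3p (44 and 65, then 338 and 396) and miR-3960 (at most 326, then 1492 and 2016) also rose by day 0.5, by 2.77 and 2.49 (adjusted p = 0.0194 and 0.00392). The largest fall of that step was that of miR-486-5p, a miRNA abundant in red blood cells, from 2018 and 2558 to 236 and 216 (-3.33, adjusted p = 0.00684), with identical values for miR-3107-5p, whose sequence it shares in the registry. miR-7000-5p followed, from 6270 and 4788 to 844 and 693 (-2.84, limma adjusted p = 0.0306). Each of these calls was lost without 1 or more single libraries.

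At day 3, miR-877-3p, miR-423-5p and miR-672-5p (1962 and 2060, then 1068 and 912) were lower than at day 2, by -2.34, -1.46 and -1.03 (limma adjusted p = 0.0316, 0.0130 and 0.0496). miR-5108 and miR-3960 were higher, by 2.61 and 1.31 (adjusted p = 0.0365 and 0.0496). These 5 calls were lost without either day 2 library.

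Both arms of a hairpin could be compared in 58 pairs. The ratio is free of the scaling of a library only where both arms are above the floor. Where an arm was raised to the floor, a fixed value, the ratio depends on that scaling. The ratio was called in 26 pairs (44.8%), with the 5p share higher in middle libraries for 18 (31.0%) and lower for 8 (13.8%). In miR-30d the 5p arm was 25.3, 17.3, 24.5 and 11.3 times the 3p arm early and between 95.5 and 526 times later, where 1 value of the 3p arm was at the floor (log2 change of the ratio 3.52, SE 0.56, limma adjusted p = 2.39e-07). The 2 arms moved apart, since miR-30d-5p rose and miR-30d-3p fell by 1.94 on the log2 scale (limma adjusted p = 0.00278), to at most 91 normalized counts.

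In miR-149 (3.20, SE 0.63, limma adjusted p = 0.00137) and miR-182 (2.89, SE 0.87, adjusted p = 0.00428) the 5p share rose as well. The share of miR-182 lost its call without 1 day 0 library. Its 3p arm was at the floor in 1 middle library, the one with the highest ratio (5382). The shares of miR-106b (-2.07, SE 0.40, limma adjusted p = 1.96e-05) and miR-323 (-1.87, SE 0.42, adjusted p = 1.94e-04) moved the other way, and in miR-323 an arm was at the floor in 3 early libraries and 1 middle one. In miR-341 the 5p arm was at the floor in all 4 middle libraries. The change of its ratio, -3.43, is therefore a lower bound on the size of the fall, with a spread that is partly set. It is counted among the 26 called pairs and the 8 with a lower 5p share, and its call is a description. Other called pairs, such as miR-431 and miR-30a, also had an arm at the floor in some libraries. For miR-106b the 5p arm stood at 0.735 to 1.83 times the 3p arm early and at 0.0941 to 0.497 times later, without a value at the floor. With log2(value + 1) in place of the floor 8 pairs were called, 3 and 5, so the number of calls depends on how low values are handled.

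**Figure D5:**
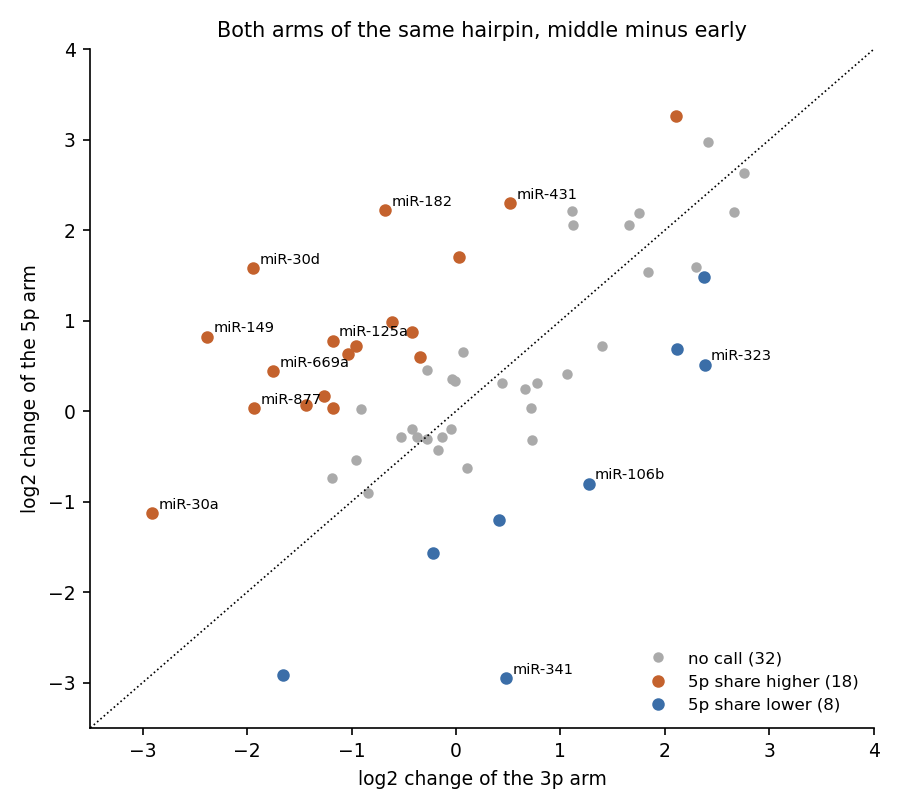
Log2 change, middle minus early, of the 5p arm (vertical axis) against that of the 3p arm (horizontal axis) for the 58 hairpins with both arms tested, with the line of equal change dotted. The 18 pairs with a higher 5p share lie above the line, farthest for miR-30d, and the 8 with a lower share below it, farthest for miR-341.

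Markers of other cell types moved in different directions. Apart from the fibroblast and smooth muscle list, each list held at most 0.469% of counts in any of the 8 libraries. Among all tested miRNAs 26.7% were higher and 32.5% lower. Of 8 listed blood miRNAs 3 were tested, with 2 higher and 0 lower, and their summed share was 0.0752% to 0.469% early and 0.175% to 0.220% later. One of them, miR-150-5p, known from lymphocytes, rose from 65, 81, 33 and 21 to 602 ± 114 (SD, n = 4) (3.67, SE 0.25, limma adjusted p = 5.79e-05), and the share of the list in these changes was not tested. miR-142-5p rose by 0.91 (adjusted p = 0.0441), a call lost without any 1 of 6 libraries, the largest p being 0.125.

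For fibroblasts and smooth muscle 6 of 15 were tested, with 1 higher and 1 lower, at 1.43% to 2.04% of counts early and 1.80% to 2.60% later. Most of this was miR-10b-5p, from the Hoxd cluster, which rose by 1.10 (SE 0.28, limma adjusted p = 0.0127), a call lost without 1 day 0.5 library (0.0614) or 1 day 2 library (0.0598). miR-143-3p, abundant in smooth muscle, fell from 505 ± 160 to 187 ± 46.2 (SD, n = 4 each; -1.42, limma adjusted p = 0.00150). Endothelium had 1 tested member and 0 calls by limma (also 0 at an unadjusted p below 0.05), at up to 0.0251% of counts. No striated muscle marker passed the filter, at up to 0.0188%.

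Of the neural list 3 of 15 were tested and 2 were lower, at 0.0885% to 0.138% early and 0.0271% to 0.0539% later. For endoderm and liver, a list of 5 with 3 tested, the share was 0.248% to 0.313% early and 0.0982% to 0.192% later. miR-192-5p, of gut and liver, fell from 1680, 1860, 1459 and 1889 to 575, 620, 1102 and 511 (-1.36, SE 0.25, limma adjusted p = 0.00297). miR-375-3p, of pancreatic islets and gut endoderm, moved the other way, from 49, 16, 66 and 184 to 165 and 153 on day 2 and more on day 3 (2.35, SE 0.38, adjusted p = 0.00166).

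The 2 libraries of day 1 took no part in the choice or the tests. For the 100 rises the median position of day 1 was 0.470 of the way from the early to the middle mean on the log2 scale, and for the falls 0.531. The day 1 mean lay outside the interval between the stage means for part of them, on the early side for 7 rises and 11 falls and beyond the middle mean for 4 and 24. Of all listed miRNAs, 23.4% and 26.8% were above the floor on day 1. Both day 1 libraries were above all early libraries for 58 of the rises, and below them for 62 of the falls. The rises and falls were chosen with the same early values, so these counts are partly set by that choice. They are descriptions, and no share over all tested miRNAs is given. miR-758-3p stood at 653 and 417 there, miR-541-5p at 9842 and 8793, and miR-5130 at 4995 and 4261, each between its early and middle values. miR-2137, at 10831 and 10619, was below its day 0.5 values and above those of day 0, and let-7f-5p, at 3702 and 3893, lay within its early range.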

How the data were processed

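Small-RNA libraries (TruSeq Small RNA kit, Illumina GAIIx) of ICM and its outgrowths were used, 2 per day at 4 times, grouped by title and description. The deposited table holds for each miRNA a score, a normalized count that the authors rounded to whole numbers. Per the submitters' processing notes, cutadapt, DESeq2 1.30.0 and mm10 were used. For the cutadapt version, the aligner, the counting and the annotation, nothing is given in the sources used here. Reads were estimated from the even spacing of values below 1000, on which 99.5% to 100% of them lay within 0.5, and the lowest listed value equalled 5 reads.

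Values were raised to the floor and log2-transformed with no pseudocount. miRNAs above the floor in at least 4 of the 8 libraries were fitted as 4 day means in R 4.3.3 with limma 3.58.1 (robust and trend options, 4 residual degrees of freedom), and the mean of days 2 and 3 was set against that of days 0 and 0.5. Arm ratios were fitted alike. All p-values from limma are Benjamini-Hochberg adjusted, with a threshold of 0.05, and changes are log2 values with the fit's standard error (SE). The scripts were tested on simulated data.

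Named were, at adjusted p below 0.05, a mean of at least 100 and no overlap between sides, the 15 largest rises and falls, the most abundant miRNAs overall and in each list, and the largest changes within a stage and in arm balance. Any other miRNA named was chosen after its values were seen. The members and lists were chosen with earlier results of these data known. Loci and sequences are from RefSeq (GRCm38.p6), matched for 303 tested miRNAs, and host genes are from GENCODE vM21 (GRCm38). Alternatives covered the floor, filter, scaling, model and omission of libraries or days. Replicate numbers did not pair the libraries.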

Additional observations from a re-analysis of the deposited data

How the results depend on the processing

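Across all alternatives run, 79 to 113 miRNAs were called higher in middle libraries, falls made up 48.4% to 65.8% of the calls, and the 15 rises and 15 falls chosen as largest kept direction and call in each that tested them (miR-542-3p and miR-7016-3p were not tested at a floor of 20 reads). The correlation of same-numbered replicates' deviations was -0.277 to 0.0873 over 6 pairs of days, so the numbers were taken as shared names. With the replicate block there were 95 rises and 115 falls, 9 calls for day 0.5 against day 0 and 3 for day 3 against day 2.

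The within-stage counts moved most, and the cause was not tested. For day 0.5 against day 0 (15 calls) there were 34 when 2 libraries above the floor were enough, 29 under quantile normalization, 32 with day 1 added and 73 with all 18 libraries, and 0 to 30 when 1 library was left out. For day 3 against day 2 (5 calls) there were 9 and 8 at floors of 10 and 20 reads, 3 with no filter, 3 without the robust option, 3 with identical values counted once, 0 with libraries rescaled to the same total, 11 under quantile normalization, 9 with day 1 added and 48 with all 18 libraries, and 0 to 23 with 1 library left out. In those fits the lone library of a day is assumed to vary like the others. Arm balance (26 calls) gave 8 without the floor and 16 at 20 reads. Leaving out 1 library kept the differences in miRNAs above the floor (-106 to -71.5) and in top 10 share (9.71 to 11.4 points), with an exact permutation p of 0.0571, the smallest that design gives. The depth of 111000 to 370000 reads leaves changes below the floor unseen.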

Other observations

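Of the 100 miRNAs called higher in the middle libraries, 85 had both day 5 libraries above all early libraries, and 51 had all 6 ESC libraries above them. Of those called lower, the numbers below all early libraries were 98 and 87. The same early values had entered the calls, so these numbers are partly set by that choice. They are descriptions, and no share over all tested miRNAs is given. Day 5 and ESC libraries are far deeper and entered none of the tests. miR-150-5p, a miRNA of lymphocytes, was at 1856 and 1095 normalized counts on day 5, and miR-758-3p of the Dlk1-Dio3 region at 2325 and 2096.

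Several miRNAs were listed at 0 in 1 library beside a high value in its replicate. miR-2861 was listed at 0 in 1 day 3 library and at 1766 in the other, with 584 to 4248 in the other 6 libraries. miR-509-5p had 1108 in 1 day 2 library and 0 in the other 7. miR-7220-3p had 1212 in 1 day 3 library, 0 in the other, and far less elsewhere.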
